A study of Mus musculus with 6 samples.

Results

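Eph receptors and their ephrin ligands were examined in mammary tumors of NeuT/ATTAC mice treated with IgG or with a murine-specific anti-PD-1 mAb. The 10 genes comprised 4 A-class receptors (Epha1, Epha2, Epha4 and Epha7), 3 B-class receptors (Ephb2, Ephb3 and Ephb4) and 3 ephrins (Efna1, Efnb1 and Efnb2). They were 10 of the 22 Eph receptor and ephrin genes of the mouse, and 10 of the 54532 gene IDs measured. The genes were chosen after the tumors had been compared, because Epha2 was far lower in the anti-PD-1 group once 1 IgG tumor was left out and because several Eph receptor genes lie on chromosome 4. Their group differences are therefore given as a description and without a test. Of the 10 genes, 9 had a mean of at least 0.5 FPKM over the 6 tumors and entered the fit across all genes. Ephb2 did not.

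By the sample labels each group comprised 3 tumors with 1 RNAseq library each. The study elsewhere describes pooled RNA for RNAseq, so it is not settled whether a library holds 1 tumor or several. Each library is called a tumor here, and an SD over n = 3 is the spread between libraries. All mice carried the NeuT transgene, in which the MMTV promoter drives Erbb2 in the mammary epithelium, and the FAT-ATTAC transgene, which was brought from a C57BL/6 background into the FVB strain. From the age of 6 weeks all of them, controls included, were injected with AP20187 at 0.4 mg/kg, which activates the FAT-ATTAC product in fat cells and leads to mammary fibrosis. The interval of these injections is given as biweekly in the sample labels and as triweekly in the methods of the study. Antibody was given 2 times per week from the age of 8 weeks, as 100 μg of isotype-matched IgG or of the anti-PD-1 mAb in each injection. The labels do not say whether each tumor came from a different mouse.

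Eph receptors form the largest family of receptor tyrosine kinases, and they bind ephrins on the surface of neighbouring cells. A-class ephrins are held in the membrane by a lipid anchor and bind mainly A-class receptors, whereas B-class ephrins span the membrane and bind mainly B-class receptors. Binding sends a forward signal into the cell that carries the receptor and a reverse signal into the cell that carries the ephrin, and both signals act on cell adhesion, repulsion and movement. EphA2 is known for its high level in many carcinomas and for its cooperation with ErbB2 in mammary tumors, and EphB4 and ephrin-B2 are known as a venous and arterial pair in blood vessels.

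The 3 genes of the list on chromosome 4 are shown first by their promoter sequence, since they share a chromosome but not a level. The sequences are the 250 bases before the RefSeq start of each gene (GRCm38.p6), 5′ to 3′ on the strand of the gene, with each CpG dinucleotide in capitals. The Epha2 promoter lies at chr4:141300971-141301220 on the plus strand, that of Epha7 at chr4:28812881-28813130 on the plus strand, and that of Ephb2 at chr4:136836013-136836262 on the minus strand.
Epha2: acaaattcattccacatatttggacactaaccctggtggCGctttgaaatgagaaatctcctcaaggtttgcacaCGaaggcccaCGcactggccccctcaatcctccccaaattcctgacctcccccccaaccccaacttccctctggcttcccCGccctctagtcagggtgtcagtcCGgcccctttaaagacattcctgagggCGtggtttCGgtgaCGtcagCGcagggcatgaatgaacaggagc
Epha7: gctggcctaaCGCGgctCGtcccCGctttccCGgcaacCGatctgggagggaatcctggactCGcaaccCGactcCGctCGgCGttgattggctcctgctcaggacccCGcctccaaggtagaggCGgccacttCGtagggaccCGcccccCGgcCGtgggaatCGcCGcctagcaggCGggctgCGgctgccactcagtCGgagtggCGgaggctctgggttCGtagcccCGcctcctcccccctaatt
Ephb2: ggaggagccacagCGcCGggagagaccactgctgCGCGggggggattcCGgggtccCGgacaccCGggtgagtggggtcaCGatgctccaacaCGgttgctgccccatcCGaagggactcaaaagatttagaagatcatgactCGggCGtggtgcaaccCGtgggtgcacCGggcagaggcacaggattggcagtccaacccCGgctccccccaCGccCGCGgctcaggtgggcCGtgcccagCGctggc

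The Epha2 window held 9 CpG dinucleotides and was 55.6% G or C. The Epha7 window held 25 and the Ephb2 window 20, with 69.2% and 68.4% G or C. The median over the 32851 promoters of the RefSeq table was 6 CpG. Among all 10 genes the count ran from 9, in Epha1 and Epha2, to 27 in Efnb2. A GC box (GGGCGG on either strand), the kind of motif bound by Sp1, was in the windows of 8 of the 10 genes and in 32.7% of all promoters. A TATA box (TATAAA on either strand) was in 1 of the 10, that of Efnb2, and in 12.4% of all promoters. An E-box (CACGTG) was in none of the 10 and in 6.02% of all promoters, and an AP-1 motif (TGACTCA or TGAGTCA) was in none and in 4.46%. None of these motifs overlaps another in its letters, and a match describes the sequence only.

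The values are FPKM, the fragments counted on a gene scaled by exon length and library size, as deposited for each tumor. Because FPKM is divided by exon length, levels of different genes can be set side by side. The reads recovered from these values came to between 21075641 and 23852764 per tumor. Differences are anti-PD-1 minus IgG on the log2(FPKM + 1) scale, after a scaling between tumors of 1.00 to 1.01, with the standard error from limma. On this scale the change of a low gene is understated. In the fit of 15069 genes, 0 genes (0%) had an adjusted p under 0.05 (limma, Benjamini-Hochberg), while 1848 had an unadjusted p under 0.05. Limma's voom on the recovered reads likewise called 0 of 14386 genes, with 1761 at an unadjusted p under 0.05. At 1.5-fold and an unadjusted p under 0.05 in this limma fit, 587 genes (3.9%) were higher and 683 (4.53%) lower in the anti-PD-1 group. In 1371 genes (9.1%) every anti-PD-1 tumor was above every IgG tumor, and in 1355 genes (8.99%) every anti-PD-1 tumor was below.

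The label of the tissue was checked against markers. Epcam, an adhesion protein of epithelial cells, lay between 690 and 1150 FPKM in the 6 tumors, and the luminal keratins Krt8 and Krt18 between 431 and 1385 FPKM. The basal keratins Krt5 and Krt14 did not exceed 2.99 FPKM. The endothelial genes Pecam1 and Cdh5 lay between 1.77 and 8.06 FPKM. In bulk tumors, fewer cells of a type and less RNA per cell cannot be told apart.

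Epha2 (ENSMUSG00000006445, chr4:141301240-141329384, plus strand) encodes the A-class receptor that is most often described in epithelial tumors. It was 26.8, 72.9 and 96.6 FPKM in the IgG tumors and 11.6, 14.0 and 15.5 FPKM in the anti-PD-1 tumors. Every anti-PD-1 tumor was below every IgG tumor. The lowest IgG tumor, replicate 1, lay much nearer to the anti-PD-1 tumors than to the other two IgG tumors. The means were 65.4 ± 35.5 and 13.7 ± 1.98 FPKM (SD, n = 3), a log2 difference of -1.99 with a standard error of 0.44. Without IgG replicate 1 the difference was -2.53, and over the 6 fits that each omit 1 tumor it ran from -2.53 to -1.63. The difference without IgG replicate 1 is the value by which the gene was chosen. The gene rests on 1390 to 11024 reads per tumor, so that counting error was small beside the spread of the IgG tumors. No other annotated gene overlaps it.

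The other A-class receptors were far lower than Epha2 in the IgG tumors and closer between the groups. Epha1 (chr6:42358487-42373268, minus strand), a receptor of epithelia, was 6.23, 6.15 and 6.01 FPKM in the IgG tumors and 8.37, 7.85 and 7.00 FPKM in the anti-PD-1 tumors. All anti-PD-1 tumors were above all IgG tumors, by a log2 difference of 0.29 (standard error 0.14). The gene overlaps Zyx on the opposite strand, and it is not stated whether the counting used strand, so that some reads may belong to Zyx. Epha7 (chr4:28813131-28967499, plus strand), a receptor best known from the developing nervous system, was 5.41, 4.35 and 5.03 FPKM in the IgG tumors and 4.65, 6.44 and 6.65 FPKM in the anti-PD-1 tumors. The groups overlapped, and the log2 difference was 0.22 (standard error 0.18). With 1 tumor omitted it ran from 0.14 (IgG replicate 2) to 0.35 (anti-PD-1 replicate 1), so that Epha7 did not share the direction of Epha2 although both lie on chromosome 4. Epha4 (chr1:77367185-77515088, minus strand), a receptor that binds ephrins of both classes, was 1.31, 1.67 and 0.987 FPKM against 1.39, 2.19 and 0.998 FPKM. Its groups overlapped almost entirely, with a log2 difference of 0.11 (standard error 0.24) that turned to -0.07 without anti-PD-1 replicate 2.

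Ephb4 (chr5:137350109-137378669, plus strand), the receptor of ephrin-B2, was the most abundant B-class receptor. It was 51.2, 51.3 and 62.5 FPKM in the IgG tumors and 66.0, 38.1 and 46.1 FPKM in the anti-PD-1 tumors. The highest and the lowest tumor were both in the anti-PD-1 group, and the log2 difference was -0.16 (standard error 0.23). It was -0.37 without anti-PD-1 replicate 1 and turned to 0.02 without anti-PD-1 replicate 2. Ephb3 (chr16:21204755-21223305, plus strand), a receptor of ephrin-B ligands known from the intestinal epithelium, was 14.3, 13.3 and 14.6 FPKM against 22.1, 17.8 and 18.3 FPKM. All anti-PD-1 tumors were above all IgG tumors, with means of 14.1 ± 0.726 and 19.4 ± 2.33 FPKM (SD, n = 3) and a log2 difference of 0.43 (standard error 0.15). Ephb2 (chr4:136647539-136835988, minus strand), also on chromosome 4, was near the limit of detection at 0.119, 0.0198 and 0.0292 FPKM in the IgG tumors and 0.164, 0.0491 and 0.114 FPKM in the anti-PD-1 tumors. These values rest on 6 to 53 reads per tumor and overlapped between the groups, and a difference was not detectable at this depth.

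The 3 ephrins of the list had higher means in the anti-PD-1 group, but in each of them at least 1 tumor of that group lay within the range of the IgG tumors or below it. Efna1 (chr3:89271733-89281142, minus strand), which encodes ephrin-A1, the ligand bound with high affinity by EphA2, was 27.7, 17.4 and 16.3 FPKM in the IgG tumors and 29.4, 41.0 and 27.3 FPKM in the anti-PD-1 tumors. IgG replicate 1, the tumor with the least Epha2 of its group, had the most Efna1 of its group, just above the lowest anti-PD-1 tumor. The means were 20.5 ± 6.26 and 32.6 ± 7.39 FPKM (SD, n = 3), a log2 difference of 0.67 (standard error 0.25). It was 0.50 without anti-PD-1 replicate 2 and 0.89 without IgG replicate 1. Efnb1 (chrX:99136130-99148991, plus strand), a ligand of the B-class receptors, was 7.54, 4.57 and 4.98 FPKM against 14.1, 4.49 and 14.6 FPKM. In 2 anti-PD-1 tumors it was over 3 times the level of the other, which was the lowest of all 6 tumors, and the log2 difference of 0.73 had a standard error of 0.42. It ran from 0.48 without anti-PD-1 replicate 3 to 1.23 without anti-PD-1 replicate 2. Efnb2 (chr8:8617434-8661242, minus strand), the arterial ligand of EphB4, was 5.42, 2.64 and 1.58 FPKM against 4.64, 4.16 and 5.55 FPKM, with a log2 difference of 0.56 (standard error 0.33). Without IgG replicate 3 it was 0.25, and with IgG replicate 1 omitted it was 0.91.

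**Figure D1:**
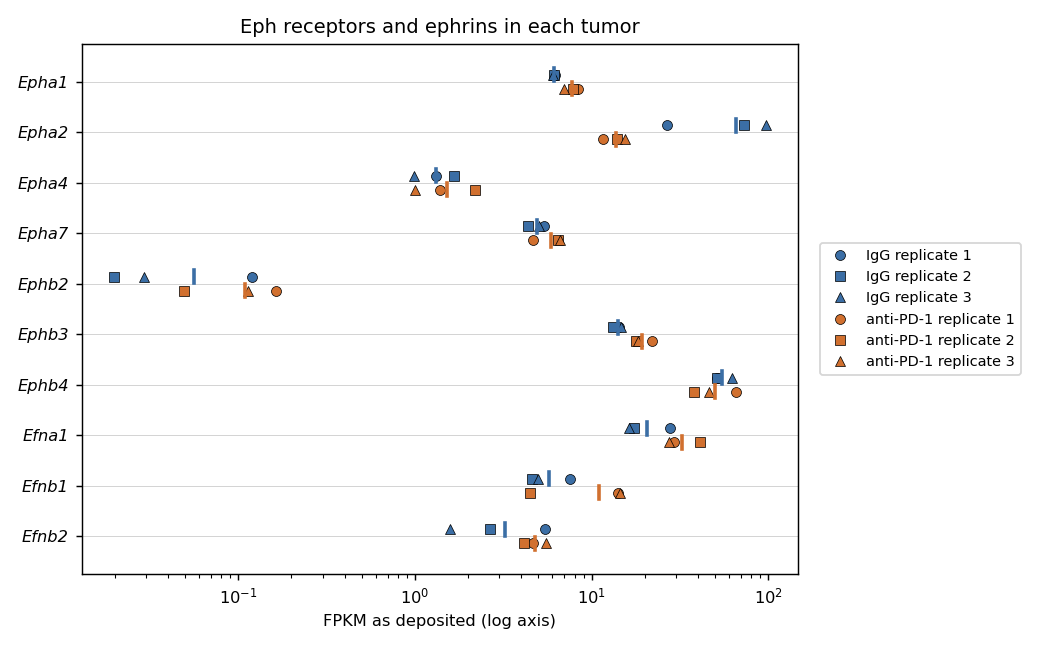
FPKM (x, log axis) of the 10 listed genes (y) in each tumor, with IgG tumors in blue, anti-PD-1 tumors in orange, a marker shape per replicate number and a vertical bar at each group mean. The Epha2 points separate, with the IgG tumors from 26.8 to 96.6 FPKM and the anti-PD-1 tumors from 11.6 to 15.5, while in Epha1 and Ephb3 the anti-PD-1 points lie above the IgG points.

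Of the 9 listed genes in the fit, 7 had a difference above 0 and 2 below, with a median of 0.29, beside a median of 0.01 over all 15069 genes. The 6 receptors had a median of 0.16 and the 3 ephrins of 0.67. The groups did not overlap in 2 genes that were higher, Epha1 and Ephb3, beside 9.1% of all genes, and in 1 that was lower, Epha2, beside 8.99%. As the genes were chosen on this contrast, nothing is read from these counts. With 3 tumors per group, an exact permutation test of a single gene cannot go below p = 0.1 in a two-sided test.

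**Figure D2:**
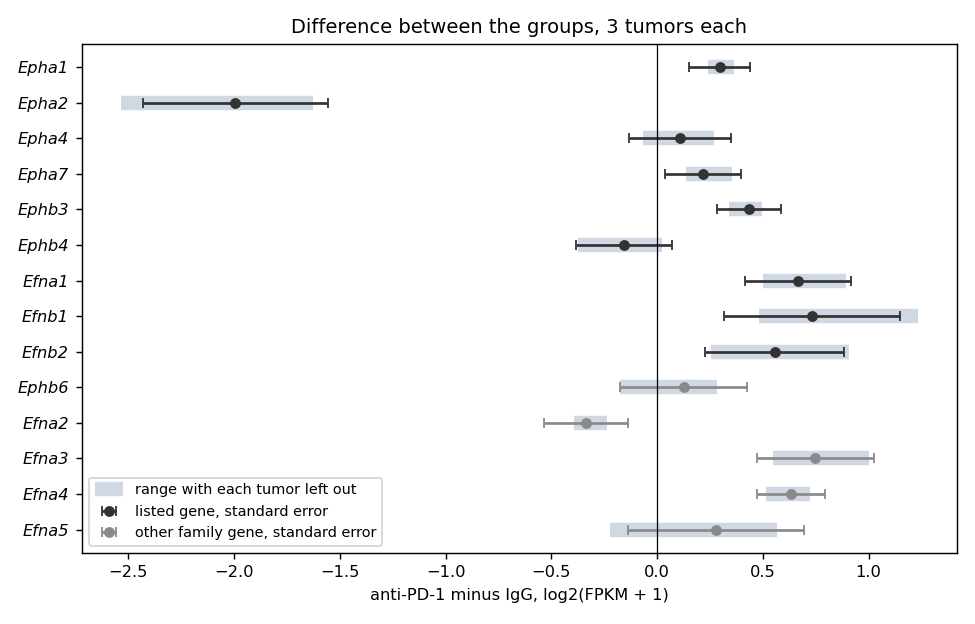
Anti-PD-1 minus IgG difference on the log2(FPKM + 1) scale (x) for the 9 listed genes in the fit (black) and the 5 other family genes in it (grey), with 3 tumors per group. Bars are the standard error from limma and pale bands the range with each tumor left out, which for Epha2 runs from -2.53 to -1.63 and for Epha4, Ephb4, Ephb6 and Efna5 includes 0.

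The order of the levels differed between the groups at its top. In the IgG tumors the mean of Epha2 came first, followed by Ephb4 at 55.0 ± 6.46 FPKM, Efna1 at 20.5 ± 6.26 and Ephb3 at 14.1 ± 0.726 (SD, n = 3). Epha2 was above Ephb4 in 2 of the 3 IgG tumors, so these neighbours did not separate, whereas the ranges of Ephb4, Efna1 and Ephb3 did not overlap. In the anti-PD-1 tumors Ephb4 came first at 50.1 ± 14.4 FPKM, then Efna1 at 32.6 ± 7.39 and Ephb3 at 19.4 ± 2.33, and Epha2 was the fifth of the 22 genes. Ephb4 was above Efna1 in 2 of these 3 tumors, so this pair did not separate either. Epha2 stood beside Efna4, at 14.5 ± 0.424 FPKM, with overlapping ranges. The lower part of the order, from Efnb1 to Epha7 and Efnb2, had overlapping ranges between most neighbours in both groups. By mean over the 6 tumors, Ephb4 was at the 94.0 percentile of tested genes, Epha2 at 91.6, Efna1 at 86.9 and Ephb3 at 78.8, and Epha4 was at 20.4.

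Epha2 made up 23.2%, 46.1% and 50.5% of the summed FPKM of the 14 Eph receptors in the IgG tumors and 9.11%, 15.1% and 15.2% in the anti-PD-1 tumors. The summed receptor FPKM was 115, 158 and 191 in the IgG tumors and 128, 93.0 and 102 in the anti-PD-1 tumors, which overlapped through IgG replicate 1 and anti-PD-1 replicate 1. Without Epha2 the sum was 88.6, 85.2 and 94.8 against 116, 79.0 and 86.5 FPKM, with overlapping groups, and Ephb4 was the largest term of that sum. The summed FPKM of the 8 ephrins was 66.7, 47.0 and 36.2 in the IgG tumors and 76.3, 78.8 and 73.2 in the anti-PD-1 tumors. These ephrin sums did not overlap. The ratio of receptor to ephrin FPKM lay between 1.73 and 5.29 in the IgG tumors and between 1.18 and 1.67 in the anti-PD-1 tumors. The ratio of Efna1 to Epha2 was 1.03, 0.239 and 0.168 in the IgG tumors and 2.53, 2.93 and 1.76 in the anti-PD-1 tumors. The RNA of Efna1 was thus above that of Epha2 in all 3 anti-PD-1 tumors and about level with it in IgG replicate 1. The protein of neither gene was measured here. Since the sums and ratios contain the genes chosen on this contrast, they are not tested.

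**Figure D3:**
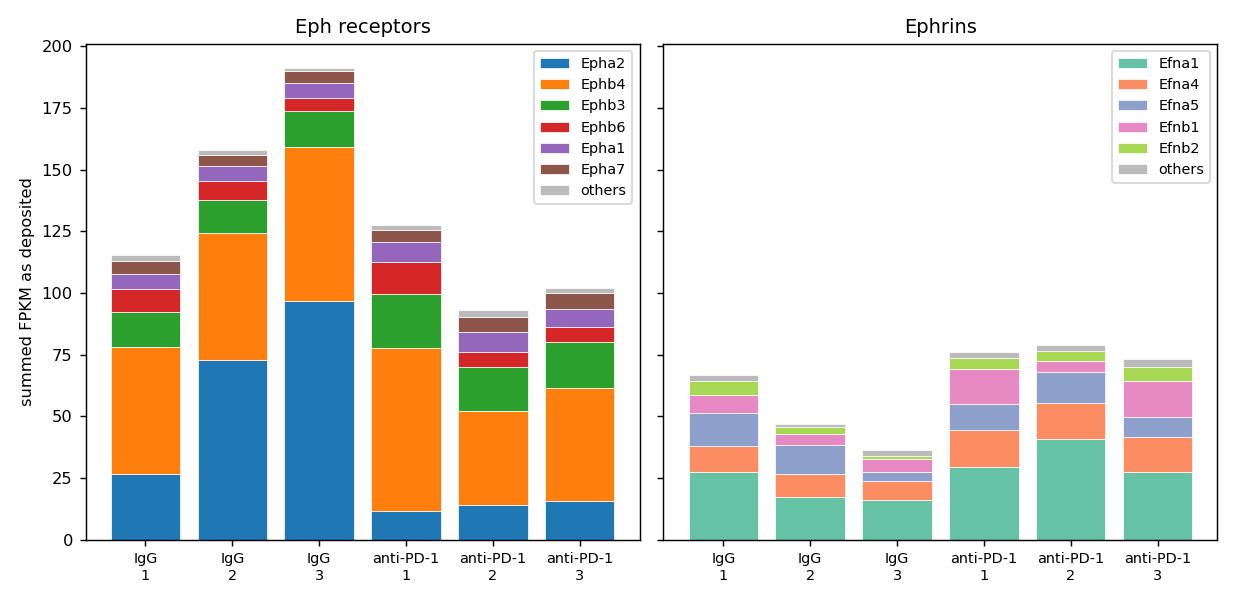
Summed FPKM (y, linear from 0) of the 14 Eph receptors (left) and the 8 ephrins (right) in each of the 6 tumors (x), stacked by gene, with the low genes pooled as others. The blue Epha2 segment is between 23.2% and 50.5% of the receptor bar in the IgG tumors and between 9.11% and 15.2% in the anti-PD-1 tumors, and the 3 anti-PD-1 ephrin bars, from 73.2 to 78.8, are above the IgG bars.

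The chromosome of Epha2 was examined because the genes were chosen with their position in view. Chromosome 4 carries 5 of the 14 Eph receptor genes, of which 3 are in the list, and no ephrin gene. Of its 926 tested genes, 774 (83.6%) had a difference below 0, beside 49.2% of all tested genes, and their median was -0.40. Without the filter on low FPKM the median was -0.16 over 1642 genes. At 1.5-fold and an unadjusted p under 0.05, 209 (22.6%) were lower and 14 higher. Epha2 lay 1.59 below the chromosome median on the log2 scale, with the rank of 3 from the lowest on the chromosome and of 30 among all genes. With a pseudocount of 0.1, Epha2 had the rank of 20 on the chromosome and of 174 among all genes, and with voom on the recovered reads of 26 and 200. Without IgG replicate 3 the ranks were 8 and 79, and without anti-PD-1 replicate 1 they were 8 and 67. Epha7 lay 0.62 above the chromosome median, and 0.38 above it without the filter.

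Within 1 Mb of the Epha2 start, 26 of 30 other tested genes had a difference below 0, with a median of -0.35. Of these 30, 9 were past both thresholds as lower, beside 22.6% of chromosome 4 and 4.53% of all genes. The nearest tested genes, picked by distance but named after their values were seen, were Gm13056 with -1.72, Arhgef19 with -0.95, Fam131c with -1.33 and Rsg1 with -0.13. Epha2 was the lowest of its neighbourhood. Ephb2, which lies 4.47 Mb from Epha2, had 23 of 29 tested genes below 0 within 1 Mb and a median of -0.41, although its own reads were too few to follow. Epha7 lies 108 Mb from Ephb2 at the other end of the chromosome. The only 2 tested genes within 1 Mb of Epha7 were Gm11914 at 0.25 and Gm11915 at 0.0016. Gm11915 overlaps Epha7 on the opposite strand, so that their reads may be mixed. Around Efna1, on chromosome 3, 55 of 79 tested genes were above 0 within 1 Mb, with a median of 0.14. Around Ephb3, 19 of 26 were above 0, and around Epha4 both tested genes were, as were the genes themselves. Other neighbourhoods went against their gene. Around Epha1, 10 of 15 were below 0, around Efnb1 4 of 5, and around Efnb2 the only tested gene, whereas around Ephb4 33 of 44 were above 0. The part of the chromosome in the Epha2 values was not tested.

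**Figure D4:**
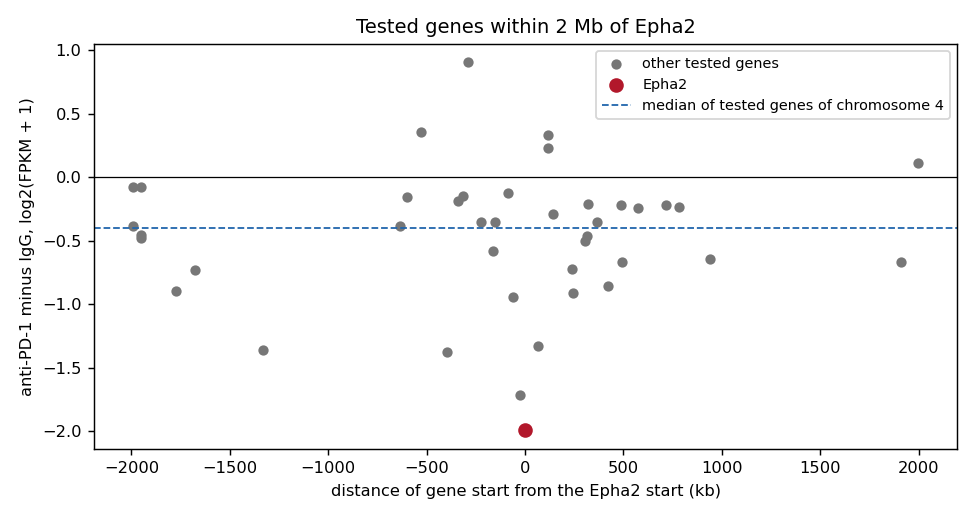
Anti-PD-1 minus IgG difference on the log2(FPKM + 1) scale (y) of each tested gene within 2 Mb of Epha2 against the distance of its start from the Epha2 start in kb (x). Epha2 (red) is the lowest point at -1.99, 35 of the 40 other genes (grey) are below 0, and the dashed line is the median of chromosome 4 at -0.40.

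The genes whose levels followed Epha2 most closely over the 6 tumors were sought among all tested genes. By Pearson's r of log2(FPKM + 1) over 6 tumors, given as a description because the groups themselves set much of it, these were Kif5a (r = 0.998), a neuronal kinesin motor, Mllt3 (0.997), a chromatin reader, Spag8 (0.995), Epb41 (0.994), a protein of the membrane skeleton, and Mysm1 (0.994), a histone deubiquitinase. Kif5a lies on chromosome 10 and the other 4 on chromosome 4. Of the 100 genes most like Epha2, 47 were on chromosome 4, which holds 6.15% of the tested genes, and 13 on chromosome 9, which holds 5.30%. Epb41, for example, was 5.03, 7.11 and 7.53 FPKM in the IgG tumors and 3.90, 4.35 and 4.08 in the anti-PD-1 tumors. A gene picked for its likeness to Epha2 shares this order of the tumors by that choice.

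The other 12 genes of the family were listed whatever their change, and 5 of them were in the fit. Efna4, an A-class ephrin, was 10.4, 9.30 and 7.56 FPKM in the IgG tumors and 15.0, 14.3 and 14.2 FPKM in the anti-PD-1 tumors. All anti-PD-1 tumors were above all IgG tumors, the log2 difference was 0.63 (standard error 0.16), and the adjusted p over all genes was 0.344 (limma). Efna3, another A-class ephrin, was 1.23, 0.188 and 0.438 FPKM against 1.59, 1.34 and 1.99 FPKM, a log2 difference of 0.75 (standard error 0.28) with an adjusted p of 0.373 (limma) and no overlap. With a pseudocount of 0.1 it was 1.54, and with voom 1.80. Efna3 rests on only 11 to 115 reads per tumor. It overlaps Gm15998 on the opposite strand, which had at most 35 reads, so that some reads may belong to Gm15998. Efna3 and Efna4 were past 1.5-fold and an unadjusted p under 0.05 as higher, 2 of 5 genes beside 3.9% of all genes. Neither passed the adjusted threshold. Efna4 was no longer past both thresholds without IgG replicate 3, where it was at 0.52. Efna3 was not without IgG replicate 2 (0.55), IgG replicate 3 (0.69), anti-PD-1 replicate 1 (0.76) or anti-PD-1 replicate 3 (0.66). Of these Efna3 values, only that without IgG replicate 2 was below 1.5-fold. Efna2, also an A-class ephrin, was 1.00, 1.04 and 1.48 FPKM against 0.550, 0.755 and 0.830 FPKM, lower in all anti-PD-1 tumors by a log2 difference of -0.34, with an adjusted p of 0.517 (limma), and the difference was -0.64 with a pseudocount of 0.1 and -0.71 with voom.

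Efna5, which like the other A-class ephrins is lipid-anchored, was 13.1, 11.7 and 3.71 FPKM against 10.7, 12.6 and 8.41 FPKM, with overlapping groups and a log2 difference of 0.28 (standard error 0.41). Without IgG replicate 3 it turned to -0.22, and without IgG replicate 1 it was 0.57. Ephb6, a receptor whose kinase domain is inactive, was 9.14, 7.80 and 5.40 FPKM against 12.7, 6.30 and 6.34 FPKM, also with overlap and a log2 difference of 0.12 (standard error 0.30), which turned to -0.18 without anti-PD-1 replicate 1 and to -0.06 without IgG replicate 3. Efna1, Efna3 and Efna4 lie within 66.3 kb of each other on chromosome 3, and each had a higher mean in the anti-PD-1 group. Of the 7 genes below the filter, Epha6 and Epha10 had no read in any tumor, and Epha8 had reads in 1 tumor. A count of 0 is compatible with an expected count of up to about 3 reads per tumor. Epha3, Epha5, Ephb1 and Efnb3 did not exceed 0.760 FPKM.

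Of 59 genes listed as partners in Eph and ephrin signalling, 57 were tested, and 26 had a difference above 0 and 31 below, with a median of -0.08. At 1.5-fold and an unadjusted p under 0.05, 3 were higher, beside 3.9% of all genes, and 7 were lower, beside 4.53%. None passed an adjusted p of 0.05 over all genes, the smallest being 0.344 (limma). Of the 35 tested partners of forward signalling, 1 was higher and 4 lower. Of 8 in reverse signalling, 1 was higher and 1 lower. Of 8 listed for the turnover of the receptors, such as shedding and dephosphorylation, none was higher and 1 lower. Of 6 partners of EphA2 at the membrane, 1 was higher and 1 lower.

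Anks1, an adaptor that binds Eph receptors, was 7.79, 5.90 and 6.40 FPKM in the IgG tumors and 14.0, 14.4 and 16.7 FPKM in the anti-PD-1 tumors. The means of 6.69 ± 0.978 and 15.0 ± 1.45 FPKM (SD, n = 3) differed by 1.07 on the log2 scale (standard error 0.16), with an adjusted p of 0.344 (limma), and the tumors within each group lay close together. Grip1, a PDZ scaffold bound by B-class ephrins, was 0.169, 0.977 and 1.20 FPKM against 2.32, 3.30 and 3.53 FPKM, a log2 difference of 1.22 (standard error 0.28) with an adjusted p of 0.344 (limma). For this low gene it was 2.11 with a pseudocount of 0.1 and 2.33 with voom. Cav1, the coat protein of caveolae, was 13.3, 6.30 and 6.08 FPKM against 14.9, 28.0 and 14.7 FPKM, a log2 difference of 1.10 (standard error 0.35) with an adjusted p of 0.355 (limma). In Cav1, IgG replicate 1 lay just below the anti-PD-1 tumors, and the gene was no longer past both thresholds without IgG replicate 2, IgG replicate 3 or anti-PD-1 replicate 2. Anks1 overlaps Taf11 and Grip1 overlaps Helb on the opposite strand, so that their reads may be mixed.

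Among the lower partners, Ngef (ephexin), a signalling protein that acts downstream of EphA receptors, was 3.28, 7.83 and 9.52 FPKM in the IgG tumors and 3.04, 2.98 and 0.776 FPKM in the anti-PD-1 tumors. Its log2 difference was -1.26 (standard error 0.44), with an adjusted p of 0.365 (limma). It was -0.86 without anti-PD-1 replicate 3, and Ngef was no longer past both thresholds without that tumor, IgG replicate 2 or IgG replicate 3. Ngef overlaps Neu2 on the opposite strand, so that some reads may belong to Neu2. Chn2 (beta-chimaerin), a Rac GTPase-activating protein, was 15.9, 34.9 and 44.2 FPKM against 12.3, 11.7 and 12.2 FPKM, a log2 difference of -1.20 (standard error 0.35) with an adjusted p of 0.344 (limma). Ptprf, the receptor phosphatase LAR, which lies on chromosome 4, was 52.7, 79.2 and 103 FPKM against 41.2, 33.1 and 30.3 FPKM, a log2 difference of -1.10 (standard error 0.26) with an adjusted p of 0.344 (limma). The groups of these 3 genes do not overlap, which was a condition of their choice, and IgG replicate 1 was the lowest IgG tumor in each. The other 4 lower partners, named here after their values were seen, were the adaptor Nck1 at -0.86, the receptor Egfr at -0.73, the syntenin gene Sdcbp at -0.70 and the exchange factor Vav2 at -0.68. The groups overlapped in Vav2. Sdcbp lies on chromosome 4, as Ptprf does, and Nck1 on chromosome 9, whose tested genes had a median of -0.36. Nck1 was past both thresholds in all 14 alternative settings, Egfr in 13, and Sdcbp and Vav2 in 9 each. Sdcbp was at -0.44 without IgG replicate 2.

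**Figure D5:**
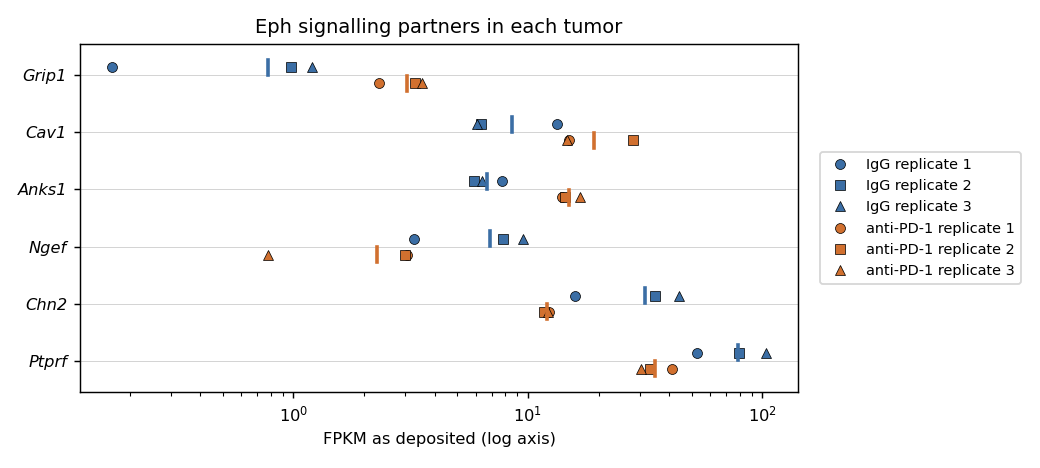
FPKM (x, log axis) of the 3 higher and 3 lower signalling partners with the largest difference (y) in each tumor, drawn with IgG tumors in blue, anti-PD-1 tumors in orange and a bar at each group mean. Anks1 separates with little spread, from 5.90 to 7.79 FPKM in the IgG tumors and from 14.0 to 16.7 in the anti-PD-1 tumors, while in Ngef and Chn2 the lowest IgG point is close to the anti-PD-1 points.

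Erbb2, measured as the mouse gene on chromosome 11, encodes a partner of EphA2 at the membrane. It lay between 20.3 and 23.2 FPKM in the IgG tumors and between 25.2 and 31.4 FPKM in the anti-PD-1 tumors. The means were 21.5 ± 1.49 and 27.5 ± 3.39 FPKM (SD, n = 3). All anti-PD-1 tumors were above all IgG tumors, but the log2 difference of 0.34 (standard error 0.15) had an adjusted p of 0.424 (limma). Erbb2 overlaps Mien1 on the opposite strand, so that some reads may belong to Mien1, and whether reads of the transgene are counted in Erbb2 was not tested.

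Markers of the cells that carry Eph receptors and ephrins were set beside these values. The summed FPKM of 8 luminal epithelial markers was between 2266 and 3055 in the IgG tumors and between 3078 and 4018 in the anti-PD-1 tumors. Of the 8 markers, 5 had a difference above 0, and 2 of the other 3 were past both thresholds as lower, beside 4.53% of all genes. The sum of 8 basal markers was 19.7 to 28.2 against 21.4 to 43.2 FPKM, although 5 of the 7 tested had a difference below 0, with a median of -0.35, and 1 was past both thresholds as higher and 1 as lower. The 10 endothelial markers summed to 27.8 to 38.8 against 20.6 to 38.3 FPKM, with 9 of 10 below 0 and none past both thresholds. Of the arterial markers 3 of the 4 tested were below 0, and of the venous markers 2 of the 4 tested, with 1 of the other two past both thresholds as higher. The sums of 8 fibroblast markers were 81.8 to 242 against 93.6 to 345 FPKM. Those of 8 macrophage markers were 215 to 385 against 284 to 456 FPKM, with all 8 above 0 and 1 past both thresholds as higher, beside 3.9% of all genes. The 8 T cell markers summed to 2.41, 6.43 and 2.89 FPKM in the IgG tumors and to 2.28, 1.65 and 2.28 FPKM in the anti-PD-1 tumors. Every anti-PD-1 tumor was thus below every IgG tumor, narrowly and at low values, as in 8.99% of single tested genes. Cd3e, Cd3d and Trac were at 0 in some tumors, and only 1 of the 8 passed the filter on low values. The 6 Schwann and neural markers summed to 235 to 357 against 224 to 319 FPKM. Skeletal muscle markers differed between tumors of both groups, at 1.60, 138 and 5.38 FPKM in the IgG tumors and 75.6, 149 and 0.645 FPKM in the anti-PD-1 tumors. The part of any of these cell types in the Eph and ephrin values was not tested.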

How the data were processed

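RNAseq of 3 IgG-treated and 3 anti-PD-1-treated tumors was used. For each tumor, FPKM of 54532 Ensembl genes was deposited by the authors. The submitters' processing notes name cutadapt 3.5, Bowtie2 2.4.1, RSEM 1.3.1 and DESeq2 1.36.0 with mm10, and how the FPKM was made is not given in the sources used here. Reads were recovered as FPKM times merged exon length (GENCODE M21, GRCm38), divided by the value of 1 read estimated for each tumor. The result fell within 0.1 of a whole read for 97.0% to 97.3% of detected values per tumor.

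After scaling by median-of-ratios factors, log2(FPKM + 1) of the 15069 genes with a mean of at least 0.5 FPKM was compared with limma 3.58.1 in R 4.3.3. The test was two-sided, with an intensity trend in eBayes and the Benjamini-Hochberg adjustment. The code was tested on simulated data. Family, signalling and marker lists and the 10 genes were chosen with earlier results of these data known, so a pattern known from those results gets no independent support here. Named were all 10 genes, every other family gene tested, the 3 higher and 3 lower signalling partners with the largest difference past 1.5-fold, unadjusted p 0.05 and without overlap, Erbb2, and the 5 genes most like Epha2. Nck1, Egfr, Sdcbp, Vav2 and the nearest neighbours of Epha2 were named after their values were seen. Alternatives were 0.1 in place of 1, no filter, a mean of at least 2 FPKM, FPKM as deposited, quantile normalization, no trend, a replicate block, each tumor left out, and voom on recovered reads. Promoters came from RefSeq (GRCm38.p6) by gene symbol, and 21 of 22 family genes matched. Group and replicate number came from the sample labels.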

Additional observations from a re-analysis of the deposited data

How the results depend on the processing

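The listed genes kept the sign of their difference in every setting in which they were fitted, except Epha4 (12 of 13 settings) and Ephb4 (13 of 14), Ephb6 kept it in 12 of 14 and Efna5 in 13 of 14, and Epha2 stayed between -2.53 and -1.63. When 1 tumor at a time was omitted, genes with an adjusted p under 0.05 numbered 0 to 12 (12 without IgG replicate 1, 1 without IgG replicate 3), genes past 1.5-fold and an unadjusted p of 0.05 numbered 352 to 999 higher and 386 to 1234 lower, and the signalling partners and other 12 family genes among them, a count without the 10 listed genes that was 5 higher and 7 lower with all tumors, numbered 3 to 6 higher and 3 to 10 lower. The lowest counts came without IgG replicate 2 and the highest of the gene counts without IgG replicate 1. Without anti-PD-1 replicate 3, 454 genes were lower, 4 of them in this count. The count was 3 higher at a mean of at least 2 FPKM, a setting that tests fewer genes. Of the 12 signalling partners and other family genes past both thresholds, Efna3 lost a threshold in 4 settings, Efna4 and Egfr in 1, Cav1 and Ngef in 3 and Sdcbp and Vav2 in 5, each time with a tumor left out except for Vav2 under the replicate block, and none of the 12 changed sign. Same-numbered tumors did not deviate together (r of -0.16, 0.01 and 0.19), so the numbers were not taken to pair them. With the replicate block 0 genes had an adjusted p under 0.05, 663 were higher and 671 lower, and the signalling partners and other 12 family genes numbered 6 higher and 6 lower. FPKM alone leaves reads shared between overlapping genes unseparated, and genes of few reads such as Ephb2 were not measurable.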
